A study of Mus musculus with 18 samples.

Results

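Haem breakdown and iron handling in mouse macrophages was followed through 10 genes: Slc48a1, Hmox1, Blvra, Blvrb, Fth1, Ftl1, Slc40a1, Cp, Tfrc and Slc11a1. The rule names them by function and uses no measured value, and their symbols were matched to Entrez gene identifiers. The choice was made with earlier results of these data known, so shares called among the 10 are descriptions. All 10 were among the 24052 genes of each count table, and all 10 passed the filter on low counts in both experiments. Macrophages given dimethyl itaconate before LPS had more Hmox1, Slc48a1, Slc40a1, Ftl1, Tfrc and Slc11a1 RNA, and less Cp RNA, than macrophages given LPS alone. With LPS alone, Cp was higher and Slc40a1 and Tfrc were lower than in unstimulated cells. Loss of Irg1, the enzyme that makes itaconate, gave no call among the 10 in the unpaired test after LPS and IFNg, and 4 calls when libraries were paired by replicate number.

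Macrophages recover iron from the haem of ingested red cells. Slc48a1 encodes the transporter that carries haem out of the phagolysosome. Haem oxygenase 1 (Hmox1) opens the haem ring to biliverdin, carbon monoxide and iron. The biliverdin reductase Blvra turns that biliverdin into bilirubin, and Blvrb encodes a second biliverdin reductase. The iron is stored in ferritin, a shell of heavy chains (Fth1) and light chains (Ftl1), or leaves through ferroportin (Slc40a1), and the copper enzyme ceruloplasmin (Cp) oxidises iron for loading onto transferrin. The transferrin receptor (Tfrc) takes up transferrin-bound iron, and Slc11a1 encodes a metal pump of the phagosome membrane that moves iron and manganese away from engulfed microbes.

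The macrophages were grown from C57BL/6 bone marrow with 20 ng/ml M-CSF, the macrophage growth factor, for 7 days. Every group had 3 libraries. In experiment 1 all cells were wild type. The DI+LPS group received 0.25 mM dimethyl itaconate (DI), a cell-permeable ester of itaconate, for 12 h and then 100 ng/ml E. coli LPS for 4 h. The LPS group received vehicle and the same LPS, the DI group received the compound with no LPS, and the Unst group received vehicle with no LPS. In experiment 2, Irg1-/- and WT macrophages were both given 100 ng/ml LPS with 50 ng/ml IFNg for 24 h, with no unstimulated cells. How the Irg1 allele was made, and whether replicates are separate animals or separate cultures, is not given in the sources used here.

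RNA was read from its 3′ end, and levels are given as CPM, the counts of a gene scaled to the TMM-adjusted size of its library. Libraries held 955718 to 7629669 counts in experiment 1 and 3088644 to 5491684 in experiment 2. LPS replicate 3 stood apart: it was the least deep, and Prdx1 took 17.6% of its counts, against 3.81% and 3.28% in LPS replicates 1 and 2. Counts of called genes in experiment 1 are therefore also given without it. The macrophage, erythroid and neutrophil marker levels are an exception, scaled to the unadjusted library total without the TMM factor. That factor was 1.32 to 1.47 in Unst and 1.16 to 1.28 in DI libraries. It was 0.576 to 0.803 in LPS and 0.795 to 0.856 in DI+LPS libraries. With it, Unst and DI sums would be lower, and LPS and DI+LPS sums higher. Marker sums of different groups are therefore not comparable on the scale of the other levels. All 10 macrophage markers looked for had counts in every group. Their summed level lay between 3670 and 4850 CPM in DI+LPS, 3250 and 4210 CPM in LPS, 5180 and 6570 CPM in DI, and 8920 and 12500 CPM in Unst libraries. Of 9 erythroid markers listed in the tables, all but Epor (up to 2.24 CPM) were at 0 in every library, the haemoglobin genes among them. Summed neutrophil markers lay between 206 and 323 CPM in DI+LPS, 136 and 275 CPM in LPS, 163 and 300 CPM in DI, and 336 and 484 CPM in Unst libraries, and their part in the results was not tested. The targeted gene appears in the tables as Acod1, the present name of Irg1. It stood at 28.4, 14.8 and 31.4 CPM in Irg1-/- libraries, against 4131, 4665 and 4225 CPM in WT libraries.

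Part of this system is controlled after transcription, through iron-responsive elements. These short hairpins bind iron regulatory proteins when iron is scarce, which holds back translation where the hairpin lies before the coding sequence and protects the RNA from decay where it lies after it. The hairpins are shown as a description of the 10 genes. The genes were chosen for a system that these elements partly control, so their share with the pattern is no independent result. A search of the untranslated regions (UTRs) of GENCODE transcripts on GRCm38 looked for a C, 5 bases, the loop CAGTGN and 5 bases that pair with those before the loop (G-T pairs allowed), on the transcript strand. It found the pattern in 160 of 21877 protein-coding genes (0.731%), among them 4 of the 10 (Fth1, Ftl1, Slc40a1 and Tfrc) and 1 of the other haem and iron genes listed below (Bola3). Each site is printed as 30 bases of the RNA's own strand, with the loop in capitals. A match is a description of the letters and not a measured site. The pattern allows no bulge among its 5 pairs, so elements of another shape are missed. A gene without a match may therefore still hold an element.
Fth1, 5′ UTR, chr19:9982731-9982760, plus strand: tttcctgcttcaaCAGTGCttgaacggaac
Ftl1, 5′ UTR, chr7:45459779-45459808, minus strand: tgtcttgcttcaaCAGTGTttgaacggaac
Slc40a1, 5′ UTR, chr1:45925465-45925494, minus strand: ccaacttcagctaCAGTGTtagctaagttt
Tfrc, 3′ UTR, chr16:32631218-32631247, plus strand: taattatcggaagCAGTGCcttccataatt
Tfrc, 3′ UTR, chr16:32631597-32631626, plus strand: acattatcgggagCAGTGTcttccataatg
Tfrc, 3′ UTR, chr16:32631662-32631691, plus strand: tctatatcggagaCAGTGAtctccatatgt
Tfrc, 3′ UTR, chr16:32631709-32631738, plus strand: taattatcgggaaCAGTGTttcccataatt

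The comparison of DI+LPS with LPS asks what the compound did to these genes in stimulated cells. Hmox1, Slc48a1, Slc40a1, Ftl1, Tfrc and Slc11a1 were higher in DI+LPS and Cp was lower. That is 6 higher and 1 lower of 10 by edgeR's quasi-likelihood F test (Benjamini-Hochberg adjusted p under 0.05 over 10285 genes), where 15.9% of all genes tested were called, 8.38% higher and 7.53% lower. The count was the same, 6 and 1, without LPS replicate 3. Fits without single libraries called 885 to 1948 of all genes, against 1636 with every library. The libraries of the groups did not overlap for 9 of the 10 genes, 8 of them higher, against 29.6% of all genes. The median log2 fold change was 1.61 over the 10 genes and 0.13 over all genes tested. Of the 4 genes with the hairpin letters printed above, 3 were higher (Slc40a1, Ftl1 and Tfrc), and of the 6 without them, 3 were higher (Hmox1, Slc48a1 and Slc11a1).

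The other comparisons of experiment 1 share libraries with that one and with each other, so their values stand side by side and are not independent. Between DI+LPS and DI, which gives the response to LPS in compound-treated cells, Hmox1, Slc48a1 and Cp were higher and Slc40a1 was lower, 4 of 10, where 18.9% of all genes were called, 11.4% higher and 7.56% lower. At an unadjusted p under 0.05 there were 5, against 29.9% of all genes. Groups did not overlap for 7 of the 10, 5 higher and 2 lower, against 44.6% of all genes, 22.3% higher and 22.3% lower. Without LPS replicate 3, Blvrb was called as well (log2 fold change 0.79, adjusted p = 0.039), making 5. Fits without single libraries called 1362 to 2831 of all genes, against 1948 with every library. Between LPS and Unst, the response in cells without the compound, Cp was higher and Slc40a1 and Tfrc were lower, 3 of 10, where 34.3% of all genes were called, 16% higher and 18.4% lower. Groups did not overlap for 4 of the 10, 1 higher and 3 lower, against 44% of all genes, 16.7% higher and 27.3% lower. The count of called genes also stood at 3 without LPS replicate 3. Over all genes it was 2762 to 4026 with single libraries left out, against 3529 with every library. Total-count scaling moved the median log2 fold change of all genes in that comparison to -1.17, against -0.24 with TMM. Then 1 of the 10 genes was higher and 6 were lower, where 853 of all 10285 genes were higher and 4945 lower. Between DI and Unst, which gives the effect of the compound at rest, edgeR called 0 of 10, where 2.84% of all genes were called, 1.33% higher and 1.51% lower. Groups did not overlap for 3 of the 10, all higher, against 30.6% of all genes, 14.6% higher and 16% lower. At an unadjusted p under 0.05 there were 3 (Hmox1, Slc11a1 and Cp), against 13.8% of all genes. DESeq2 called 1, limma called 2, and edgeR called 1 without LPS replicate 3. Over all genes, edgeR called 140 to 803 with single libraries left out, against 292 with every library. In these bulk libraries, fewer cells with a transcript and less of it per cell cannot be told apart.

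**Figure D1:**
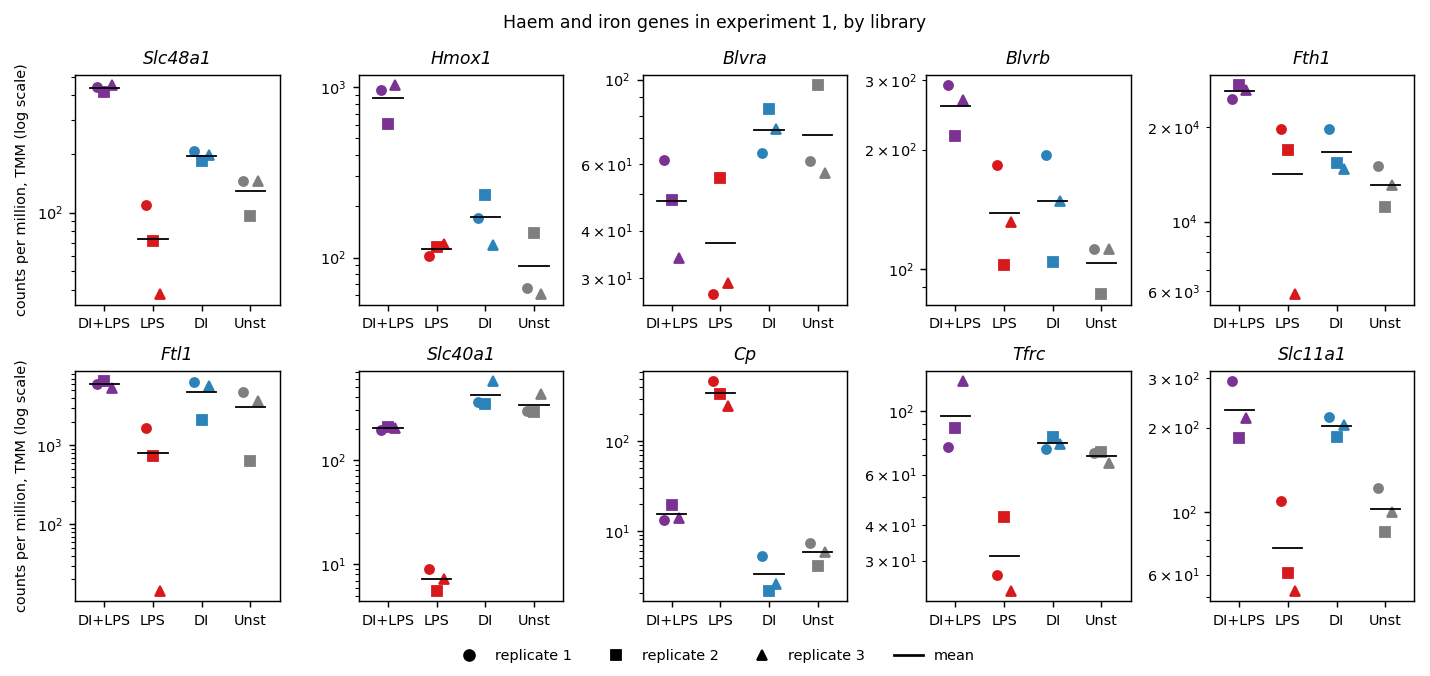
Levels of the 10 genes in experiment 1, in CPM on a log axis, for each library of DI+LPS, LPS, DI and Unst; symbols mark replicate number and bars the group mean. Hmox1 and Slc48a1 were highest in the 3 DI+LPS libraries, Slc40a1 was lowest and Cp highest in the 3 LPS libraries, and the Ftl1 point at 14.5 CPM is LPS replicate 3.

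Haem entry was followed by Slc48a1 (Entrez gene 67739, chr15:97784365-97792692 on GRCm38). It stood at 444, 419 and 453 CPM in DI+LPS, 109, 71.3 and 38.1 CPM in LPS, 207, 185 and 197 CPM in DI, and 146, 96.1 and 145 CPM in Unst libraries. The DI+LPS libraries were above all others, and those of LPS and Unst overlapped. Slc48a1 was 5.86-fold higher in DI+LPS than in LPS (log2 2.55 ± 0.34 SE, adjusted p = 7.8e-05). It was 2.23-fold higher in DI+LPS than in DI (log2 1.16 ± 0.32, adjusted p = 0.016). That second call was lost without any of DI replicates 1, 2 and 3 or DI+LPS replicates 1 and 3 (adjusted p = 0.052, 0.066, 0.062, 0.069 and 0.068), and with total-count scaling (log2 0.57, adjusted p = 0.26). Between LPS and Unst the log2 fold change was -0.79 ± 0.33 (adjusted p = 0.07), and it passed without LPS replicate 1 (adjusted p = 0.015) or Unst replicate 2 (0.048), in DESeq2 (0.015), and with DESeq2 size factors (0.037), upper-quartile (0.014) or total-count scaling (0.0017). Between DI and Unst it was 0.60 ± 0.32 (adjusted p = 0.44), with all DI libraries above all Unst libraries.

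Hmox1 (Entrez gene 15368, chr8:75093618-75100593), the enzyme that opens the haem ring, stood at 965, 604 and 1029 CPM in DI+LPS, 102, 115 and 120 CPM in LPS, 170, 233 and 119 CPM in DI, and 66.6, 139 and 61 CPM in Unst libraries. The lowest DI+LPS library was above every library of the other groups, whose ranges overlapped. Hmox1 averaged 866 ± 229 CPM in DI+LPS and 112 ± 9.36 CPM in LPS (SD, n = 3 each), a 7.75-fold difference (log2 2.96 ± 0.38, adjusted p = 5.1e-05). It was 4.98-fold higher in DI+LPS than in DI (log2 2.32 ± 0.37, adjusted p = 0.00014). Neither treatment given singly passed the test: the log2 fold change was 0.34 ± 0.36 between LPS and Unst (adjusted p = 0.5) and 0.98 ± 0.35 between DI and Unst (adjusted p = 0.19). The first of these turned to -0.61 with total-count scaling, and the second passed in limma with sample weights (log2 1.15, adjusted p = 0.0049).

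The biliverdin reductases Blvra and Blvrb did not pass in any comparison of experiment 1. Blvrb (Entrez gene 233016, chr7:27447978-27465981), which also reduces flavins, stood at 291, 216 and 267 CPM in DI+LPS, 183, 102 and 131 CPM in LPS, 194, 104 and 148 CPM in DI, and 112, 86.3 and 112 CPM in Unst libraries. All DI+LPS libraries were above all others. Its log2 fold change was 0.89 ± 0.31 between DI+LPS and LPS (adjusted p = 0.06) and 0.80 ± 0.31 between DI+LPS and DI (adjusted p = 0.082). The first passed without LPS replicate 1 (adjusted p = 0.023), in DESeq2 (adjusted p = 0.043) and with a replicate block (adjusted p = 0.027). Blvra (Entrez gene 109778, chr2:127070629-127097084) ranged over 33.9 to 61.4 CPM in DI+LPS, 27.2 to 55 CPM in LPS, 63.9 to 83.6 CPM in DI, and 56.6 to 96.8 CPM in Unst libraries. The DI+LPS and LPS ranges overlapped, and every library given LPS was below every DI and Unst library, except DI+LPS replicate 1, which was above 2 of the Unst libraries. The log2 fold change of Blvra was 0.35 ± 0.36 between DI+LPS and LPS (adjusted p = 0.55) and -0.93 ± 0.36 between LPS and Unst (adjusted p = 0.054). The comparison of LPS with Unst passed for Blvra without LPS replicate 2 (adjusted p = 0.014), in DESeq2 (0.017), with a replicate block (0.037), and with DESeq2 size factors (0.033), upper-quartile (0.014) or total-count scaling (0.0009).

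Among the genes of iron storage, Ftl1 passed between DI+LPS and LPS, and Fth1 in no comparison of experiment 1. Fth1 (Entrez gene 14319, chr19:9980600-9985111), the heavy chain that oxidises iron, stood at 24674, 27343 and 26304 CPM in DI+LPS, 19692, 16897 and 5873 CPM in LPS, 19811, 15440 and 14672 CPM in DI, and 15013, 11140 and 13121 CPM in Unst libraries. The 3 DI+LPS libraries were the highest of the 12, and LPS replicate 3 the lowest. The log2 fold change of Fth1 was 0.88 ± 0.39 between DI+LPS and LPS (adjusted p = 0.14), and 0.49 without LPS replicate 3 (adjusted p = 0.25). Between LPS and Unst it was 0.11 ± 0.39 (adjusted p = 0.85), and its sign turned without LPS replicate 1 (-0.22), without LPS replicate 2 (-0.01), with upper-quartile scaling (-0.16) and with total-count scaling (-0.78).

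Ftl1 (Entrez gene 14325, chr7:45457944-45459886), the light chain that aids iron core formation, stood at 5982, 6472 and 5280 CPM in DI+LPS, 1660, 732 and 14.5 CPM in LPS, 6356, 2115 and 5733 CPM in DI, and 4719, 642 and 3704 CPM in Unst libraries. The LPS libraries were all below the DI+LPS libraries, and replicate 2 was the lowest library of the DI group and of the Unst group. The 14.5 CPM of LPS replicate 3 rest on 8 counts, against 5014 and 1304 counts in LPS replicates 1 and 2. Ftl1 was 7.32-fold higher in DI+LPS than in LPS (log2 2.87 ± 0.91, adjusted p = 0.039). Its log2 fold change lay between 2.27 (without LPS replicate 3, adjusted p = 0.0099) and 3.97 (without LPS replicate 1) when single libraries were left out. The call was lost without DI replicate 1 (adjusted p = 0.052) or 3 (0.053), DI+LPS replicate 1 (0.093), 2 (0.094) or 3 (0.077), LPS replicate 2 (0.098) or Unst replicate 3 (0.053), in DESeq2's Wald test (0.055) and when only the DI+LPS and LPS libraries were fitted (0.12). With no filter on low counts its adjusted p was 5.7e-13, in a fit that gave every gene the spread of the trend and no weight to the gene's own. Between LPS and Unst the log2 fold change was -1.91 ± 0.88 (adjusted p = 0.1), and it passed without LPS replicate 1 (adjusted p = 0.029) or Unst replicate 2 (0.047), in limma (0.024), with total-count scaling (0.02) and in the unfiltered fit (9.4e-07). The spread of Ftl1 within groups was the 3rd highest of 10285 genes in experiment 1, with an SD of 2.01 on the log2 scale against a median of 0.56, while in experiment 2 its SD was 0.15 against a median of 0.30.

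The light chain gave 24.2, 23.7 and 20.1 counts for every 100 heavy chain counts in DI+LPS libraries, 8.43, 4.33 and 0.247 in LPS libraries, 32.1, 13.7 and 39.1 in DI libraries, and 31.4, 5.76 and 28.2 in Unst libraries. The ratio of DI+LPS libraries was above that of every LPS library, and the DI and Unst groups each held 1 low library, replicate 2. In experiment 2 the ratio was 16.9, 21 and 13.9 in Irg1-/- libraries, against 17.6, 22.4 and 15.8 in WT libraries, and the groups overlapped. These are ratios of counts and not of molecules. The related genes Ftmt and the Fthl17 family had 0 counts in every library, and reads that fit processed copies of ferritin genes elsewhere in the genome are uncertain in their assignment.

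**Figure D2:**
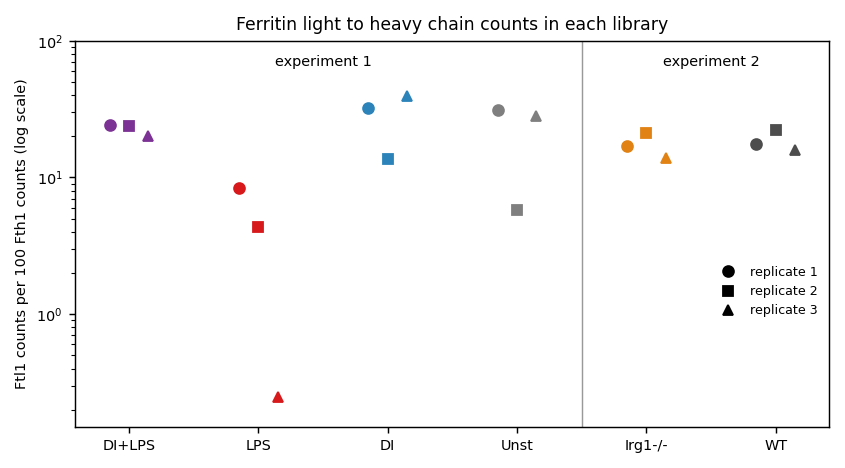
Ftl1 counts per 100 Fth1 counts in each of the 18 libraries, on a log axis, with symbols for replicate number and a line between the experiments. The ratio lay between 20.1 and 24.2 in DI+LPS and between 0.247 and 8.43 in LPS libraries, with DI, Unst, Irg1-/- and WT libraries beside them.

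Of the 10 genes, the exporter Slc40a1 and its partner Cp had the largest fold changes between DI+LPS and LPS and between LPS and Unst. Slc40a1 (Entrez gene 53945, chr1:45908070-45926532), the iron exporter, stood at 194, 206 and 203 CPM in DI+LPS, 8.94, 5.62 and 7.26 CPM in LPS, 357, 347 and 566 CPM in DI, and 297, 287 and 429 CPM in Unst libraries. The groups followed each other without overlap from LPS through DI+LPS to the unstimulated cells, and only DI and Unst overlapped. The LPS values rest on 27, 10 and 4 counts. Slc40a1 averaged 201 ± 6 CPM in DI+LPS and 7.27 ± 1.66 CPM in LPS (SD, n = 3 each), a 27-fold difference (log2 4.76 ± 0.37, adjusted p = 5.2e-07). In LPS it was 45.5-fold lower than in Unst (log2 -5.51 ± 0.38, adjusted p = 6.4e-09). In DI+LPS it was 2.11-fold lower than in DI (log2 -1.07 ± 0.29, adjusted p = 0.014). That call was lost without DI replicate 3 (adjusted p = 0.11) or DI+LPS replicate 1 (0.069) or 3 (0.055). The log2 fold change between DI and Unst was 0.32 ± 0.29 (adjusted p = 0.7).

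Cp (Entrez gene 12870, chr3:19956933-20009750), the iron-oxidising partner of the exporter, ran the other way. It stood at 13.3, 19.3 and 14 CPM in DI+LPS, 467, 335 and 247 CPM in LPS, 5.18, 2.15 and 2.52 CPM in DI, and 7.38, 4.08 and 5.76 CPM in Unst libraries. The LPS libraries were far above all others, the DI+LPS libraries came next, and DI and Unst overlapped. Cp was 22.6-fold lower in DI+LPS than in LPS (log2 -4.50 ± 0.40, adjusted p = 1.9e-06). It was 59.1-fold higher in LPS than in Unst (log2 5.89 ± 0.43, adjusted p = 1.1e-08). It was 4.65-fold higher in DI+LPS than in DI (log2 2.22 ± 0.39, adjusted p = 0.00044). Across the 12 libraries log2 levels of Cp and Slc40a1 had a Pearson r of -0.97, given as a description, since the same groups order both genes. With total-count scaling the log2 fold changes between LPS and Unst were 4.95 for Cp and -6.43 for Slc40a1.

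Iron import was followed by Tfrc (Entrez gene 22042, chr16:32608896-32632794), the transferrin receptor. It stood at 74.9, 87.6 and 127 CPM in DI+LPS, 26.8, 42.7 and 23.6 CPM in LPS, 73.9, 80.9 and 76.6 CPM in DI, and 71.4, 72 and 66.1 CPM in Unst libraries. The LPS libraries were below all others, and DI+LPS and DI overlapped. Tfrc was 3.05-fold higher in DI+LPS than in LPS (log2 1.61 ± 0.32, adjusted p = 0.0023). In LPS it was 2.21-fold lower than in Unst (log2 -1.14 ± 0.32, adjusted p = 0.0095), a call lost when only the LPS and Unst libraries were fitted (adjusted p = 0.054). Its log2 fold change was 0.32 ± 0.30 between DI+LPS and DI (adjusted p = 0.52) and 0.14 ± 0.30 between DI and Unst (adjusted p = 0.89), and both turned negative with total-count scaling (-0.27 and -0.055).

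Slc11a1 (Entrez gene 18173, chr1:74375014-74386057), the phagosomal metal pump, stood at 292, 184 and 216 CPM in DI+LPS, 110, 60.7 and 52.7 CPM in LPS, 218, 185 and 205 CPM in DI, and 122, 85.3 and 100 CPM in Unst libraries. The 6 libraries with the compound were above the 6 without it, whether or not LPS was given. These are RNA levels, and whether the pump works in cells of this strain was not tested. Slc11a1 was 3.04-fold higher in DI+LPS than in LPS (log2 1.60 ± 0.32, adjusted p = 0.0027). Between DI and Unst its log2 fold change was 0.98 ± 0.31 (adjusted p = 0.12), which passed without LPS replicate 3 (1.00, adjusted p = 0.023), in DESeq2 (adjusted p = 0.031), in limma (adjusted p = 0.005) and when only DI and Unst libraries were fitted (adjusted p = 0.014). The log2 fold change was 0.19 ± 0.31 between DI+LPS and DI (adjusted p = 0.75), with a sign that turned with total-count scaling (-0.40), with upper-quartile scaling (-0.03) and without DI+LPS replicate 1 (-0.03). It was -0.44 ± 0.32 between LPS and Unst (adjusted p = 0.31).

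**Figure D3:**
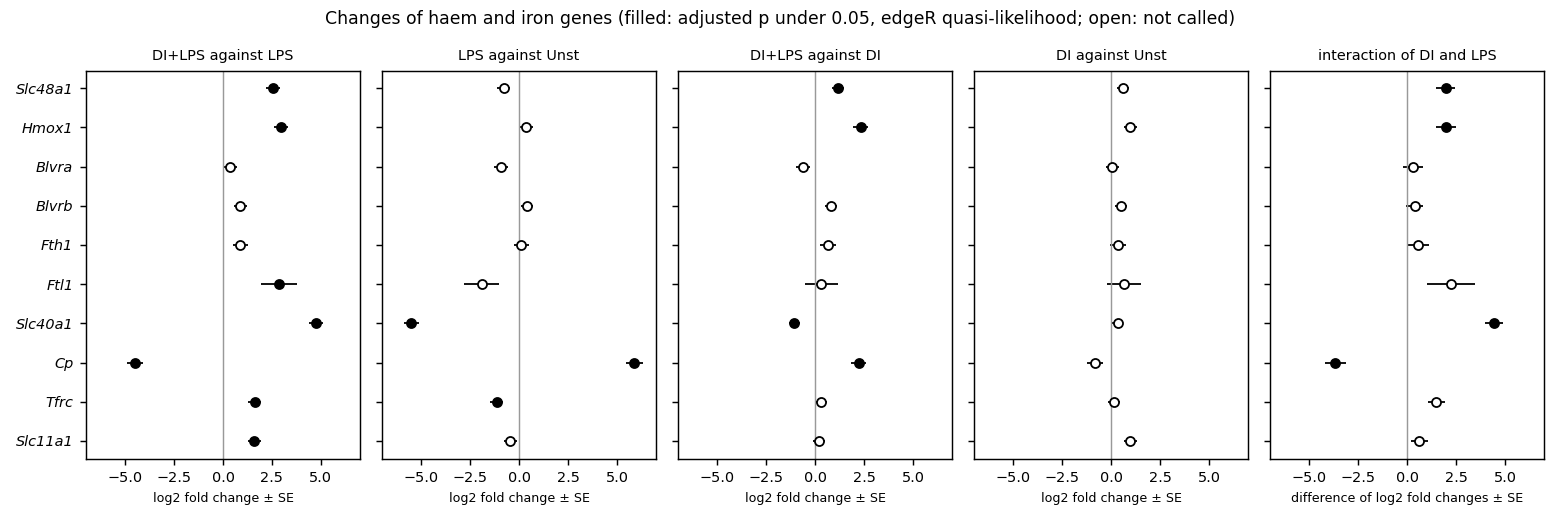
Log2 fold changes with standard errors for the 10 genes in the 4 comparisons of experiment 1, and the difference between the LPS responses with and without DI in the last panel; filled points passed the test. Between DI+LPS and LPS the values run from -4.50 for Cp to 4.76 for Slc40a1, and between DI and Unst every point is open.

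The interaction of DI and LPS asks whether the LPS response of a gene differed with the compound present. Slc40a1, Hmox1 and Slc48a1 had a higher LPS response with DI than without, and Cp a lower one, 4 of 10, where 2.91% of all genes were called, 1.39% higher and 1.52% lower. Without LPS replicate 3 Tfrc was called as well, making 5. Fits without single libraries called 132 to 806 of all genes, against 299 with every library. The LPS response of Slc40a1 was -1.07 on the log2 scale with DI and -5.51 without, a difference of 4.43 ± 0.46 (adjusted p = 4.8e-05). That of Cp was 2.22 with DI and 5.89 without, a difference of -3.67 ± 0.54 (adjusted p = 0.00077). Both kept their calls with each of the 12 libraries left out. The difference was 1.98 ± 0.50 for Hmox1 (adjusted p = 0.041) and 1.95 ± 0.46 for Slc48a1 (adjusted p = 0.027), and each of these calls was lost in 9 of 12 fits with a library left out. Hmox1 kept its call without DI replicate 2, LPS replicate 3 or DI+LPS replicate 2, and its adjusted p lay between 0.016 and 0.12 over the 12. Slc48a1 kept its call without LPS replicate 1, LPS replicate 3 or Unst replicate 2, and its adjusted p lay between 0.0097 and 0.1. The difference for Tfrc was 1.47 ± 0.43 (adjusted p = 0.078), which passed without LPS replicate 2 (adjusted p = 0.043) or 3 (adjusted p = 0.047), in DESeq2 (adjusted p = 0.013) and with total-count scaling (adjusted p = 0.047).

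Experiment 2 asks whether macrophages that cannot make itaconate differ in these genes after LPS and IFNg. In the unpaired test edgeR called 0 of the 10 genes between Irg1-/- and WT, where 0.0632% of 9491 genes were called, with 1 gene (Tfrc) at an unadjusted p under 0.05, against 7.01% of all genes, and DESeq2 and limma also called 0. Groups did not overlap for 2 of the 10 (Tfrc higher, Ftl1 lower), against 13.4% of all genes, 6.12% higher and 7.24% lower. Deviations from the group mean went together in same-numbered libraries of the 2 groups, so a fit with replicate number as a block is given beside it. In that fit Tfrc was higher in Irg1-/- and Ftl1, Fth1 and Blvrb were lower, 4 of 10, where 6.26% of all genes were called, 2.9% higher and 3.36% lower. That fit had 2 residual degrees of freedom and 41 prior ones, against 4 and 7.57 in the unpaired fit, so its p-values rest mainly on the spread shared over genes and less on each gene's own. The median log2 fold change was -0.21 over the 10 genes and 0.01 over all genes in the unpaired fit. On the unadjusted library total, summed macrophage markers lay between 2760 and 3270 CPM in Irg1-/- and 2850 and 3130 CPM in WT libraries. Summed neutrophil markers lay between 8.74 and 11.3 CPM in Irg1-/- and 11 and 15.2 CPM in WT libraries, on the same scale.

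Tfrc stood at 29.5, 29.1 and 19.9 CPM in Irg1-/- libraries, against 15.2, 13.1 and 14.3 CPM in WT libraries. All Irg1-/- libraries were above all WT libraries. The log2 fold change of Tfrc was 0.87 ± 0.24 in the unpaired fit (adjusted p = 0.39) and 0.84 ± 0.21 with the replicate block (adjusted p = 0.0067). Ftl1 stood at 3581, 4189 and 4527 CPM in Irg1-/- libraries, against 4932, 5455 and 5743 CPM in WT libraries, again with no overlap. Its log2 fold change was -0.39 ± 0.18 in the unpaired fit (adjusted p = 0.73) and -0.40 ± 0.08 with the block (adjusted p = 0.0015). Fth1 stood at 21177, 19908 and 32674 CPM in Irg1-/- libraries, against 28031, 24331 and 36418 CPM in WT libraries. The groups of Fth1 overlapped, and replicate 3 was the highest library of both. Its log2 fold change was -0.27 ± 0.25 in the unpaired fit (adjusted p = 0.95) and -0.28 ± 0.08 with the block (adjusted p = 0.02), lower in 3 of 3 pairs.

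Blvrb stood at 114, 104 and 166 CPM in Irg1-/- libraries, against 163, 143 and 181 CPM in WT libraries. It was lower in 3 of 3 pairs, with overlapping groups, and its log2 fold change was -0.36 ± 0.11 with the block (adjusted p = 0.043) and -0.34 ± 0.22 without (adjusted p = 0.86). The 6 other genes passed neither fit. Hmox1 ranged over 216 to 302 CPM in Irg1-/- and 158 to 235 CPM in WT libraries, with a log2 fold change of 0.30 ± 0.21 (adjusted p = 0.9). Slc40a1 ranged over 17.8 to 31.6 CPM in Irg1-/- and 25.6 to 30.9 CPM in WT libraries (log2 -0.33 ± 0.26, adjusted p = 0.93). Cp ranged over 87.4 to 134 CPM in Irg1-/- and 83.6 to 90.2 CPM in WT libraries (log2 0.26 ± 0.21, adjusted p = 0.94). Blvra lay between 10.1 and 19.9 CPM in Irg1-/- and 16.8 and 18.8 CPM in WT libraries, with a log2 fold change of -0.15 ± 0.28 (adjusted p = 0.98). Slc48a1 lay between 117 and 160 CPM in Irg1-/- and between 124 and 155 CPM in WT libraries, with a log2 fold change of -0.0032 ± 0.19 (adjusted p = 0.9995). Slc11a1 lay between 132 and 193 CPM in Irg1-/- and between 161 and 208 CPM in WT libraries (log2 -0.26 ± 0.20, adjusted p = 0.93). Each of these 6 genes had overlapping groups.

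**Figure D4:**
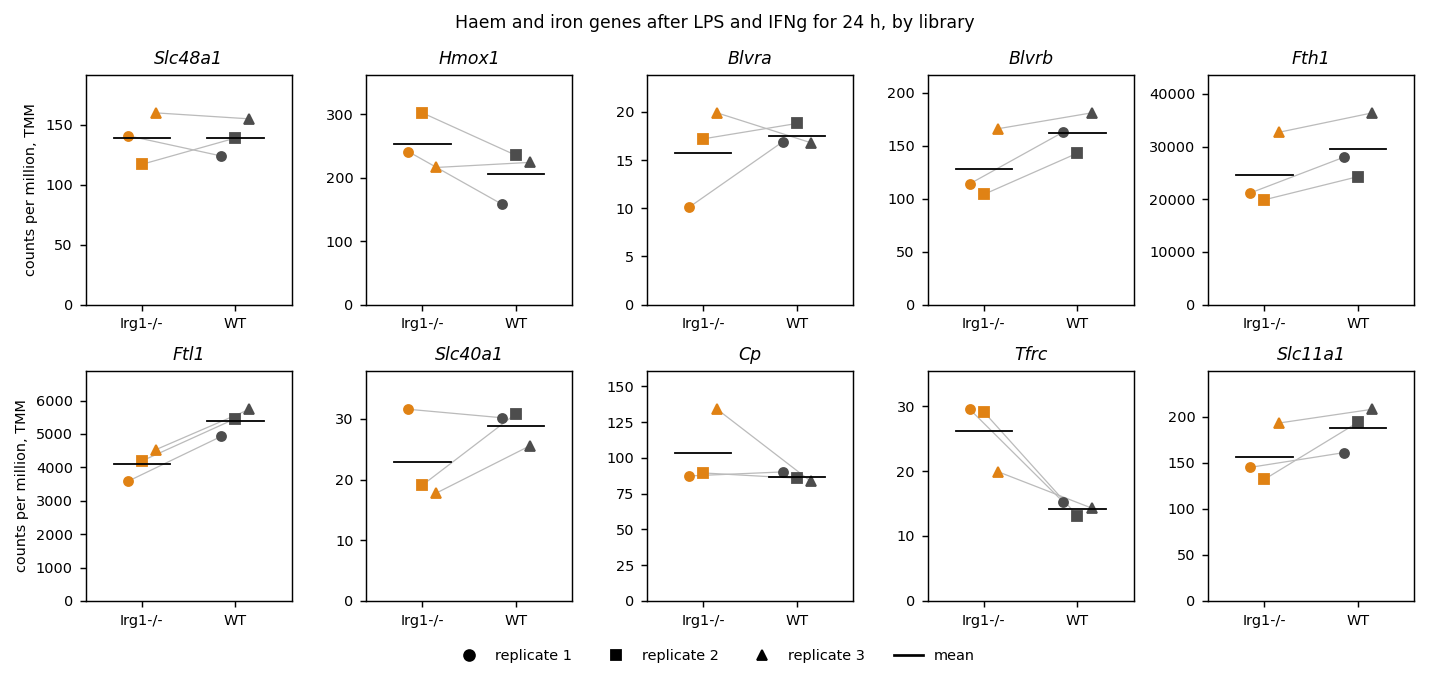
Levels of the 10 genes in experiment 2, in CPM on axes that start at 0, for each Irg1-/- and WT library; lines join libraries of the same replicate number and bars are group means. Tfrc was above and Ftl1 below WT in all 3 Irg1-/- libraries, and Fth1 and Blvrb were lower in each of the 3 pairs.

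Another 54 genes of haem and iron biology were listed by role, and 42 of them were tested in experiment 1. Between DI+LPS and LPS, 6 of the 42 were higher and 1 was lower, with a median log2 fold change of 0.35, or 0.34 with Uros at its bound, against 0.13 over all genes. That is 7 called, a share near the 15.9% of all genes. The count was 3 without DI+LPS replicate 1, 3 without DI+LPS replicate 2 and 3 when only the compared libraries were fitted. Between LPS and Unst 8 were higher and 11 lower, with a median of -0.58 against -0.24, where 34.3% of all genes were called, and 11 were called when only those libraries were fitted. Between DI+LPS and DI 8 were higher and 3 lower, against 18.9% of all genes, and between DI and Unst 1 was higher and 3 were lower, against 2.84%. With total-count scaling 2 were higher and 24 lower between LPS and Unst, and 6 higher and 7 lower between DI+LPS and DI. Rises with LPS in these lists therefore depend on the scaling. Counts over all genes under that scaling are given at the end. Without LPS replicate 3 the counts were 10 (DI+LPS against LPS), 15 (DI+LPS against DI), 21 (LPS against Unst), 7 (DI against Unst) and 2 (interaction). In the same order, fits without single libraries called 885 to 1948, 1362 to 2831 and 2762 to 4026 of all genes. The last comparisons had 140 to 803 (DI against Unst) and 132 to 806 (interaction). The interaction called 0 of the 42 in edgeR, with 7 at an unadjusted p under 0.05, against 18.1% of all genes, 3 called by DESeq2 and 1 by limma.

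Of the 8 genes of haem synthesis, 1 was higher and 5 were lower in LPS than in Unst, where 16% of all genes were higher and 18.4% lower. Alas1, the first and rate-limiting enzyme, stood at 944, 762 and 685 CPM in DI+LPS, 153, 242 and 102 CPM in LPS, 249, 255 and 250 CPM in DI, and 59.6, 55.4 and 58.1 CPM in Unst libraries. No group overlapped another, although the highest LPS library was only just below the lowest DI library. Alas1 passed in all 4 comparisons, 4.77-fold higher in DI+LPS than in LPS (adjusted p = 0.00012), 3.17-fold higher in DI+LPS than in DI (adjusted p = 0.00066), 2.89-fold higher in LPS than in Unst (adjusted p = 0.00097) and 4.35-fold higher in DI than in Unst (adjusted p = 0.00087). Ppox and Urod, later enzymes of the pathway, averaged 2.1 and 2.78 CPM in LPS, against 10.5 and 11.7 CPM in Unst. Their LPS means are near the floor, with 0, 8 and 1 counts for Ppox and 1, 11 and 1 counts for Urod. Uros had 0 counts in all LPS libraries, against 28 counts over the 3 Unst libraries, which makes it at least 2.56-fold lower in LPS at a floor of 3 counts over the group.

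Among genes of haem uptake and movement, Lrp1, the receptor for haemopexin-bound haem, averaged 196 CPM in DI+LPS, 77.4 CPM in LPS and 253 CPM in Unst. It was 2.55-fold higher in DI+LPS than in LPS (adjusted p = 0.011) and 3.29-fold lower in LPS than in Unst (adjusted p = 0.00076). Flvcr1, a choline transporter first described as a haem exporter, was 4.69-fold lower in LPS than in Unst (adjusted p = 0.00011) and 4.59-fold lower in DI+LPS than in DI (adjusted p = 0.00012). Abcb6, a porphyrin transporter, had 67, 35 and 27 counts in DI+LPS libraries, against 2, 0 and 0 counts in LPS libraries and 48, 5 and 45 counts in Unst libraries, and passed in both comparisons (adjusted p = 0.002 and 0.0082).

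Of the 10 tested genes of iron uptake, chaperoning and ferritin turnover, 4 were higher and 1 was lower in LPS than in Unst. Of all genes, 16% were higher and 18.4% lower there. Between DI+LPS and DI 4 were higher and 1 was lower, where 11.4% of all genes were higher and 7.56% lower. The metal transporters Slc11a2 and Slc39a14 averaged 111 and 64.6 CPM in DI+LPS, 103 and 34 CPM in LPS, 32.9 and 5.86 CPM in DI, and 32.7 and 4.46 CPM in Unst, and passed in both LPS comparisons (adjusted p = 0.00036 and 7.6e-07 between DI+LPS and DI, 0.00046 and 5.4e-06 between LPS and Unst). Ncoa4, the receptor that sends ferritin to breakdown, was 2.67-fold lower in LPS than in Unst (adjusted p = 0.011). Trf, transferrin itself, was 2.25-fold lower in DI+LPS than in LPS (adjusted p = 0.012) and 3.02-fold lower in DI than in Unst (adjusted p = 0.0045). Slc25a37, the mitochondrial iron importer, was 5.14-fold higher in DI+LPS than in DI (adjusted p = 2.1e-05) and 3.96-fold higher in LPS than in Unst (adjusted p = 8.5e-05). Hfe, a regulator of iron sensing, averaged 1.33 CPM in LPS and 5.22 CPM in DI, against 24.5 CPM in Unst, and passed in both comparisons (adjusted p = 0.00022 and 0.021). The LPS mean of Hfe is near the floor and rests on 7, 3 and 0 counts.

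Of 6 transcription factors known to act on these genes, Spic and Nfe2l2 were higher in DI+LPS than in LPS, where 8.38% of all genes were higher. Spic, which drives red pulp macrophage formation and is induced by haem, stood at 33.5, 21.7 and 22.1 CPM in DI+LPS, 10.3, 6.18 and 0 CPM in LPS, 4.47, 6.11 and 5.14 CPM in DI, and 5.53, 8.83 and 9.44 CPM in Unst libraries. The DI+LPS libraries were above all others. It was 3.83-fold higher in DI+LPS than in LPS (adjusted p = 0.021) and 4.93-fold higher in DI+LPS than in DI (adjusted p = 0.0028). Nfe2l2, which encodes Nrf2, an activator of Hmox1 and the ferritin genes, stood at 666, 692 and 435 CPM in DI+LPS, against 309, 210 and 27.2 CPM in LPS libraries (log2 1.68 ± 0.54, adjusted p = 0.041). With a library left out, the call of Nfe2l2 was lost in 8 of 12 fits (adjusted p up to 0.13) and that of Spic in 2 (up to 0.11). When only DI+LPS and LPS libraries were fitted both were lost (adjusted p = 0.15 for Nfe2l2 and 0.11 for Spic), as was Nfe2l2 with total-count scaling (0.057) and Spic in limma (0.052). Bach1, the haem-sensing repressor of Hmox1, was called in none of the comparisons of the 2 experiments. Between LPS and Unst, Hif1a and Mitf were higher (log2 1.96 and 1.42, adjusted p = 0.002 and 0.0056), with overlapping libraries. Tfeb was lower there (log2 -2.65, adjusted p = 0.0024). Between DI+LPS and DI, Hif1a was higher (log2 1.49, adjusted p = 0.019) and Tfeb lower (log2 -3.02, adjusted p = 0.00088). Of all genes, 34.3% and 18.9% were called in these comparisons.

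**Figure D5:**
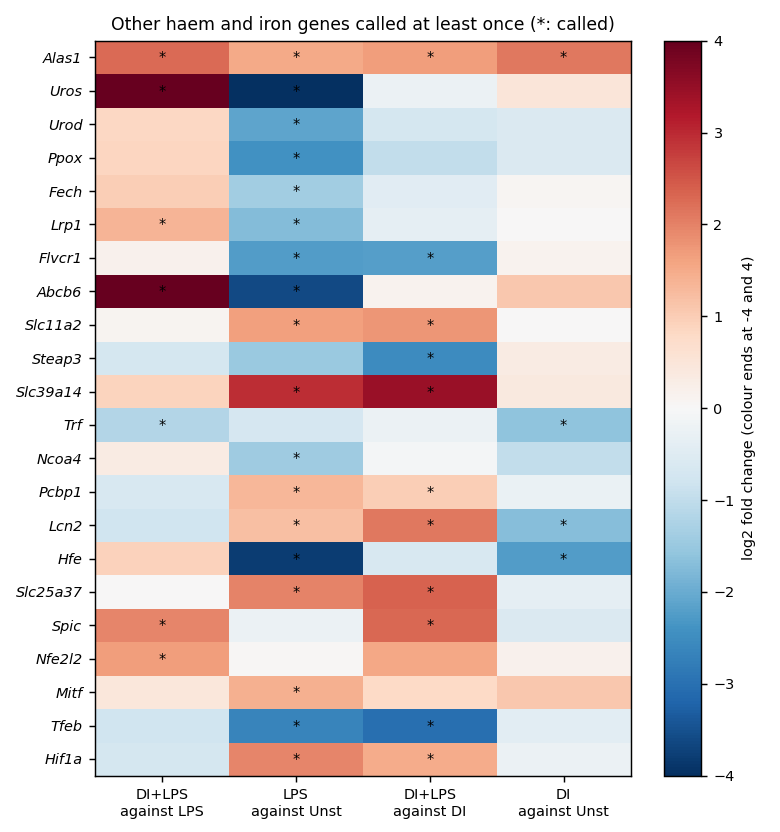
Log2 fold changes of 22 other haem and iron genes called in at least 1 comparison of experiment 1, red for higher and blue for lower in the first-named group, with asterisks for genes that passed the test. Alas1 passed in all 4 columns; the fitted values of Uros and Abcb6 in both LPS columns rest on 0 and 2 counts in the LPS group and are no measure of size.

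In experiment 2, 38 of these genes were tested and edgeR called 0 in the unpaired fit, with 3 at an unadjusted p under 0.05, against 7.01% of all genes, and 0 called by DESeq2 or limma. With the replicate block 3 were called, a share near the 6.26% of all genes. Lcn2, the siderophore-binding lipocalin, stood at 27, 32.8 and 44 CPM in Irg1-/- libraries, against 18.9, 16.6 and 25.6 CPM in WT libraries (log2 0.76 ± 0.18, adjusted p = 0.0051). Spic stood at 17.9, 18.8 and 15.9 CPM in Irg1-/- libraries, against 25.5, 41.1 and 20.3 CPM in WT libraries (log2 -0.67 ± 0.20, adjusted p = 0.03). The iron chaperone Pcbp2 was the other, at a log2 fold change of 0.31 ± 0.10 (adjusted p = 0.046). The groups did not overlap for these 3 genes, against 13.4% of all genes.

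For each of the 10 genes, the genes with the most similar pattern were ranked by Pearson's r of log2 CPM over the 12 libraries of experiment 1, which share group and depth, so r is a description with no test. The genes most like Hmox1 were Rmc1 (r = 0.969), Rps6kc1 (0.957) and Naip2 (0.953), and those most like Slc48a1 were Alox5ap (0.972), Degs1 (0.97) and Tlr4 (0.969). Slc40a1 was followed most closely by Mad2l1bp (0.988), Usp20 (0.984) and Crat (0.982), and Cp by Ccnd2 (0.982), Nectin2 (0.98) and Tnfsf4 (0.979). For the ferritin chains the closest were Gapdh (0.981) for Ftl1 and Slc3a2 (0.983) for Fth1. For Tfrc and Slc11a1 they were Tmem241 (0.972) and Cat (0.959), and for the reductases Rita1 (0.961) for Blvra and Akr1a1 (0.94) for Blvrb. Among the 10 themselves, Slc48a1 and Slc11a1 had an r of 0.92 and Slc48a1 and Fth1 one of 0.85.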

How the data were processed

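Polyadenylated RNA was primed with barcoded oligo-dT, amplified over 12 PCR cycles and sequenced as strand-specific 3′ libraries, per the labels' protocols. STAR, HTSeq, DESeq2 and build mm10 are named, without versions, in the submitters' processing notes. The annotation and the strand option of counting are not given in the sources used here, so reads of overlapping or antisense partners may be mixed. The values the authors deposited are raw counts, 1 row for each Entrez identifier. Identifiers matched a symbol for 23969 of 24052 genes. The 83 others were tested unnamed and held at most 0.738% of a library's counts in experiment 1 and 2.14% in experiment 2. Since the protocols mention no UMI, PCR copies are part of the counts, and floors cover counting error only.

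Each experiment was fitted with edgeR 4.0.16 (R 4.3.3): TMM factors, a low-count filter (filterByExpr on the groups, minimum count 10) and a 2-sided quasi-likelihood F test, Benjamini-Hochberg adjusted over all genes tested (10285 with 8 residual degrees of freedom, and 9491 with 4). Calls needed an adjusted p below 0.05. Standard errors are the fold change divided by the square root of F, and a gene at 0 in a whole group is given as a bound against 3 counts over that group. In 3 counts, the floor of a single library was 0.393 to 3.14 CPM in experiment 1 and 0.546 to 0.971 CPM in experiment 2. These floors use the unadjusted library total, without the TMM factor. Common dispersion was 0.122 and 0.0516, so precision was lower in experiment 1. The scripts were tested on simulated data.

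Whether replicates are separate animals or cultures is not given, so the spread behind each p-value may be technical. Replicate numbers were taken to pair libraries where every same-numbered pair had deviations from the group mean that correlated above 0.1. This held in experiment 2 (3 of 3 pairs, 0.354 to 0.455), and not in experiment 1 (6 of 18 pairs). Alternatives were DESeq2 1.42.0, limma 3.58.1 (voom with sample weights), other scalings, no filter, a replicate block, only the compared groups, and each library left out. Total-count scaling was added after seeing the data. The 10 genes all count in every comparison, and values that did not pass are not all printed. Most other listed genes that are named were called, at most 4 per direction and list, and some called ones are not named. Up to 3 genes most alike by r are named for each of the 10. A listed gene that counts towards its list is otherwise not reported here. Genes and lists were chosen with earlier results of these data known.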

Additional observations from a re-analysis of the deposited data

Results flagged for a closer look

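By the test of the interaction itself, the response to LPS differed with the compound for 4 of the 10 genes, where 2.91% of all genes were called. The log2 response with DI minus that without was 4.43 for Slc40a1, 1.98 for Hmox1, 1.95 for Slc48a1 and -3.67 for Cp. For Slc40a1 and Cp the call held in all 12 fits that left out a library, and for Hmox1 and Slc48a1 it held in 3 of 12.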

How the results depend on the processing

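Over all alternatives, 1018 values of single genes kept their direction and their side of the threshold, 41 newly passed, 37 no longer passed and 24 changed sign, none of which passed the test with either sign. For LPS against Unst, 5 of the 10 genes were called with DESeq2 size factors, 5 with upper-quartile scaling, 5 by DESeq2 and 7 with total-count scaling, against 3. For DI against Unst the count was 1 by DESeq2, 2 by limma and 1 when only those groups were fitted, against 0. With libraries left out singly the counts lay between 6 and 8 (DI+LPS against LPS), 2 and 5 (DI+LPS against DI), 3 and 5 (LPS against Unst), 0 and 1 (DI against Unst), 2 and 5 (interaction) and 0 and 0 (Irg1-/- against WT). The replicate block called 4 genes between Irg1-/- and WT, against 0, and in experiment 1 it changed counts by at most 1 (8, 5, 4, 0 and 4 called), where the numbers did not pair the libraries. The cause of these moves was not tested.

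Sign changes with total-count scaling were DI+LPS against DI for Ftl1 (-0.29), Tfrc (-0.27) and Slc11a1 (-0.40), LPS against Unst for Hmox1 (-0.61), Fth1 (-0.78) and Blvrb (-0.53), DI against Unst for Blvra (-0.14) and Tfrc (-0.055), and Irg1-/- against WT for Slc48a1 (0.04). With upper-quartile scaling they were Slc11a1 (-0.03, DI+LPS against DI), Fth1 (-0.16, LPS against Unst) and Blvra (-0.032, DI against Unst). DESeq2 and its size factors each gave 0.005 for Slc48a1 between Irg1-/- and WT. With a library left out the ranges that crossed 0 were -0.089 to 0.33 for Blvra (DI against Unst), -0.035 to 0.588 for Ftl1 and -0.032 to 0.324 for Slc11a1 (DI+LPS against DI), -0.22 to 0.52 for Fth1 (LPS against Unst), and -0.36 to 0.092 for Blvra and -0.099 to 0.107 for Slc48a1 (Irg1-/- against WT).

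Counts over all genes moved by over 1.5 times as follows. DI against Unst (292) gave 458 with no filter, 654 by DESeq2, 1486 by limma, 1013 with only those groups, and 140 to 803 with a library left out. The interaction (299) gave 497, 816 and 485 under the first 3 of these, and 132 to 806. DI+LPS against LPS (1636) gave 653 with only those groups and 885 to 1948. DI+LPS against DI (1948) gave 3657 by limma and 3196. LPS against Unst (3529) gave 5798 with total-count scaling, 853 higher and 4945 lower against 1641 and 1888, and 2108 with only those groups. Irg1-/- against WT (6) gave 40 with no filter, 36 by DESeq2, 594 with the block and 3 to 6. Total-count scaling also moved the split of higher and lower genes to 904 and 527 (DI+LPS against LPS), 709 and 2026 (DI+LPS against DI), 72 and 193 (DI against Unst) and 214 and 86 (interaction), against 862 and 774, 1170 and 778, 137 and 155, and 143 and 156. The unfiltered fit of experiment 1 had infinite prior degrees of freedom, against 9.91 with the filter, and that of experiment 2 had 59.2, so p-values without the filter make little or no use of a gene's own spread. Depth limits Slc40a1 and Ftl1 in LPS replicate 3, which had 4 and 8 counts.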
